A study of Mus musculus with 36 samples.

Results

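The 79 genes described here lie on the same chromosome as the mouse HoxD cluster, on both of its sides. They were chosen by position and by mean level, with a gene start on chromosome 2 between 64 and 85 Mb (mm10) and a mean of 20 or more counts over the 36 libraries of the series. Hoxd genes, every gene starting from 1.3 Mb centromeric to 1.7 Mb telomeric of Hoxd13, and Itga6, Grb14 and Ttn were left out by the rule. The level threshold used the same counts as the tests below, though not their split into genotypes. Of 50833 genes in the count table, 13429 reached a mean of 20 counts, and 79 of those were members, 44 centromeric and 35 telomeric of HoxD. The comparison set was the 13323 other autosomal genes at the same level, of which 991 were on the rest of chromosome 2. Among the members 78 were protein-coding.

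The series measured poly(A) RNA in micro-dissected forelimbs of B6CBAF1 mouse embryos at E12.5. Embryos carried an allele lacking CTCF binding sites at the Hoxd cluster, made by CRISPR/Cas9 deletion on the same chromosome: Del(CBS1) lacks the first site, Del(CBS1-2) the first and second, and the series goes on through Del(CBS1-3) and Del(CBS1-4) to Del(CBS1-5). WT embryos served as controls. Distal and proximal forelimb were sequenced for each of the 6 genotypes, with 3 libraries per group, each from the paired limbs of an individual embryo. Embryo sex, read from whether Xist or the Y-linked Ddx3y was higher, was not balanced between genotypes: females made up 3 of 3 in Del(CBS1-2), 1 of 3 in each of Del(CBS1) and Del(CBS1-3), and 2 of 3 in the remaining alleles and in WT. The labels state neither the zygosity of the embryos nor the number of founder lines per allele. All 5 alleles share the loss of the first site, and successive alleles differ by a single site. The expression tables carry no reads on the removed sites, so the deletions themselves were not checked here.

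HoxD genes pattern the limb and are controlled by enhancers in a pair of large flanking chromatin domains. CTCF is a zinc-finger protein that binds DNA in an oriented manner and, with cohesin, anchors chromatin loops and domain borders. The genes considered here lie beyond those domains and code for proteins with unrelated roles, among them Dlx and Sp transcription factors, integrins, a Wnt antagonist, mitochondrial enzymes and RNA-processing factors.

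Promoter sequences are shown for 4 members to give the DNA context of the results below: Hat1 and Selenoh differed among genotypes in both tissues, Frzb swung widely between alleles and Cdca7, which differed between the WT tissues, is a named member whose window holds letters of the CTCF core. Each run is 300 bases, 5′ to 3′ on the gene's strand, from RefSeq on GRCm38.p6, with 250 bases before and 50 after the annotated start. Capitals mark GC boxes (GGGCGG, read on either strand, so CCGCCC as well) and, in Cdca7, also a stretch of the CTCF core (AGNNGGCAG, either strand). The motifs do not overlap in Cdca7.
Hat1 (chr2:71389010-71389309, plus strand): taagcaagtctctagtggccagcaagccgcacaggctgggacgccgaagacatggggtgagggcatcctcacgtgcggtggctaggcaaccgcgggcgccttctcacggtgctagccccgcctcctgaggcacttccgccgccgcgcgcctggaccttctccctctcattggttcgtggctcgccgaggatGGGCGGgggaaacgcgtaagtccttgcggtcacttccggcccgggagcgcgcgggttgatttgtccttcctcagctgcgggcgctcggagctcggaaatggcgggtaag
Selenoh (chr2:84670659-84670958, minus strand): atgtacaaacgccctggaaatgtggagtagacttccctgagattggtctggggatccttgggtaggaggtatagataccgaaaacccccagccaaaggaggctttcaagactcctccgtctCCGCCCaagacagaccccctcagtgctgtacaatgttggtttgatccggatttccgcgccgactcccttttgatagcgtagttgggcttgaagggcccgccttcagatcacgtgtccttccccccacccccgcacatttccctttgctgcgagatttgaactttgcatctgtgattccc
Frzb (chr2:80447347-80447646, minus strand): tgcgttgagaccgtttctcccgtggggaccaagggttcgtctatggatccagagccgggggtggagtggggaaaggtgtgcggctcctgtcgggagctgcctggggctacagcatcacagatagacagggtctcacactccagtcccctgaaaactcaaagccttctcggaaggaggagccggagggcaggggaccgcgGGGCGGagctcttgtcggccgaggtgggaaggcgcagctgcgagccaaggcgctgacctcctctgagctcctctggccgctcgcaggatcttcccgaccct
Cdca7 (chr2:72475969-72476268, plus strand): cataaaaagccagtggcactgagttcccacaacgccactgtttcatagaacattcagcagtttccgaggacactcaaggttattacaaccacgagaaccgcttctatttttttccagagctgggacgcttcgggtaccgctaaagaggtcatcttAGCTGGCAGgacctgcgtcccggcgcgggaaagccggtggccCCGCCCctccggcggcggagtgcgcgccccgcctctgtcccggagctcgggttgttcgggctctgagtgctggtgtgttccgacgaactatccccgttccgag
A promoter was found by symbol for 69 of the 79 members. The CTCF letters were present in 7 of these 69 windows (10.1%), those of Cobll1, Csrnp3, Cdca7, Itprid2, Zfp804a, Ypel4 and Slc43a1, against 10.6% of 10112 windows of the other autosomal genes and 10.4% of all 27025 windows. The GC box was present in 46 member windows (66.7%), against 66.0% of the other autosomal windows and 35.9% of all windows. The median GC content was 63.7% in member windows and 61.3% in the other autosomal ones. The promoter windows of the members carried both motifs at the share seen in other genes of similar level. A match describes letters only, and a window without one says nothing of CTCF binding.

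In WT forelimbs the members spanned a wide range of levels per transcript length. Their mean FPKM (fragments scaled to transcript length and library size, as deposited) was 0.0199 to 181 in distal WT, with a median of 5.93, and 0.23 to 150 in proximal WT, with a median of 6.51. Ssb, the La protein that binds the ends of new RNA polymerase III transcripts, was the highest in both tissues, at 181 ± 6.51 FPKM in distal and 150 ± 21.0 FPKM in proximal WT (SD, n = 3). Selenoh, a selenoprotein of the nucleolus, was next, at 124 ± 14.7 FPKM in distal and 91.3 ± 5.13 FPKM in proximal WT. The ubiquitin-conjugating enzyme Ube2e3 followed, at 93.8 ± 8.54 FPKM in distal and 79.1 ± 4.36 FPKM in proximal WT. Ssb and Ube2e3 were named after their values were seen. Just inside the level threshold stood Zfp804a with a mean of 20.1 counts, Rapgef4 with 30.9, Zfp385b with 33.8 and Scn2a with 42.2. Just outside stood Pde1a with 15, P2rx3 with 14.7, Rtn4rl2 with 10.2 and Sp5 with 9.0.

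Many of the members differed between distal and proximal WT forelimb, among them Dlx1, Dlx2, Sp9 and Frzb. edgeR's quasi-likelihood test with Benjamini-Hochberg adjustment over all genes called 33 of 79 members (41.8%) at adjusted p under 0.05, against 32.2% of the other autosomal genes and 24.8% to 36.9% of the genes of single autosomes. Distal and proximal WT libraries come from the same embryos, but this fit had no embryo term. Its counts, SE and adjusted p are those of an unpaired comparison unless a block is named. The larger count with the embryo as a block is given in the last section. Of the 33, 18 were higher and 15 lower in distal tissue. Without distal WT library 3 or without proximal WT library 3 the count was 21, and without proximal WT library 1 it was 22, with 24.7% to 25.2% of the other autosomal genes called there. The tissue labels matched their markers: 6 of 7 distal limb genes were called higher and 6 of 6 proximal limb genes lower in distal WT.

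The transcription factors led the distal side. Sp9, a zinc-finger factor of the apical ectodermal ridge, had 10.3, 6.99 and 9.47 library-size-scaled counts (CPM) in distal WT, against 0.233, 3.57 and 0.749 CPM in proximal WT. All distal libraries were above all proximal ones, though proximal library 2 stood well above its replicates, and the log2 fold change was 2.50 ± 0.64 (SE, adjusted p = 0.0182). Without proximal WT library 3 the adjusted p was 0.0658, and the call was also lost without distal WT library 1. Dlx2, a homeodomain factor, had 12.6, 14.5 and 14.7 CPM in distal WT, against 3.495, 5.13 and 3.95 CPM in proximal WT. The tissues were far apart, with a log2 fold change of 1.72 ± 0.18 (adjusted p = 0.000167). Its neighbour Dlx1 had 9.64, 11.04 and 10.3 CPM in distal WT and 4.19, 7.58 and 6.13 CPM in proximal WT, with a log2 fold change of 0.78 ± 0.21 (adjusted p = 0.0234). That call was lost in 4 of 6 fits without a library (distal WT 2 or 3, proximal WT 1 or 3), with an adjusted p of up to 0.0637. Cdca7, a partner of the chromatin remodeller HELLS in proliferating cells, had 215, 213 and 227 CPM in distal WT, against 138, 129 and 140 CPM in proximal WT, a log2 fold change of 0.69 ± 0.06 (adjusted p = 5e-05). Hat1, which acetylates newly made histone H4, was higher by 0.47 ± 0.07 (adjusted p = 0.000838) and Selenoh by 0.44 ± 0.08 (adjusted p = 0.00362), and for both every distal library was above every proximal one. Sp3, a broadly expressed zinc-finger factor, had a log2 difference of 0.19 ± 0.06 and an adjusted p of 0.0524, which became 0.0096 with the embryo as a block. Of the 11 members listed as transcription and chromatin genes, 10 were called, 7 higher and 3 lower in distal WT.

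Klhl41, Itga4, Frzb and Tfpi were lower in distal WT. Of the 10 members listed as adhesion, matrix and signalling genes, 5 were called, all of them lower in distal WT. Klhl41, a Kelch protein of the skeletal muscle sarcomere, had 1.91, 2.24 and 1.73 CPM in distal WT, against 62.2, 72.1 and 69.2 CPM in proximal WT. That is a log2 fold change of -5.12 ± 0.12 (adjusted p = 2.55e-08), and the groups were far from overlapping. All 13 skeletal muscle markers were called lower in distal WT, with a summed level of 34.6 to 37.7 CPM, against 1822 to 2164 CPM in proximal WT. Itga4, the integrin α4 subunit, had 31.7, 29.2 and 35.3 CPM in distal WT, against 88.6, 93.3 and 108 CPM in proximal WT, a log2 fold change of -1.60 ± 0.10 (adjusted p = 8.9e-06). Frzb, a secreted Wnt antagonist of cartilage and limb mesenchyme, had 33.6, 12.4 and 32.4 CPM in distal WT, against 96.3, 46.2 and 95.3 CPM in proximal WT. The ranges did not overlap, but library 2 was low in both tissues, and the log2 fold change was -1.60 ± 0.38 (adjusted p = 0.0123). Tfpi, the inhibitor of tissue factor, had 11.4, 7.48 and 10.7 CPM in distal WT, against 20.1, 18.7 and 20.5 CPM in proximal WT, without overlap (adjusted p = 0.00181). Calcrl, the receptor subunit for adrenomedullin and calcitonin gene-related peptide, was at -0.61 ± 0.18 (adjusted p = 0.0364), a call lost in 5 of 6 fits without a library, all but the one without distal WT 2, with an adjusted p of up to 0.11. Scn1a, a voltage-gated sodium channel α subunit, was at -0.63 ± 0.31 (adjusted p = 0.172), which became 0.0381 with the embryo as a block. Itgav, Nckap1, Ctnnd1, Galnt3, Pdk1, Cobll1, Cybrd1, Gorasp2, Ubr3, Tmx2 and Slc43a1 did not pass the test between the WT tissues. In bulk tissue, fewer cells of a type and less RNA per cell cannot be told apart, and the part of the cell mixture in these differences was not tested.

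**Figure D1:**
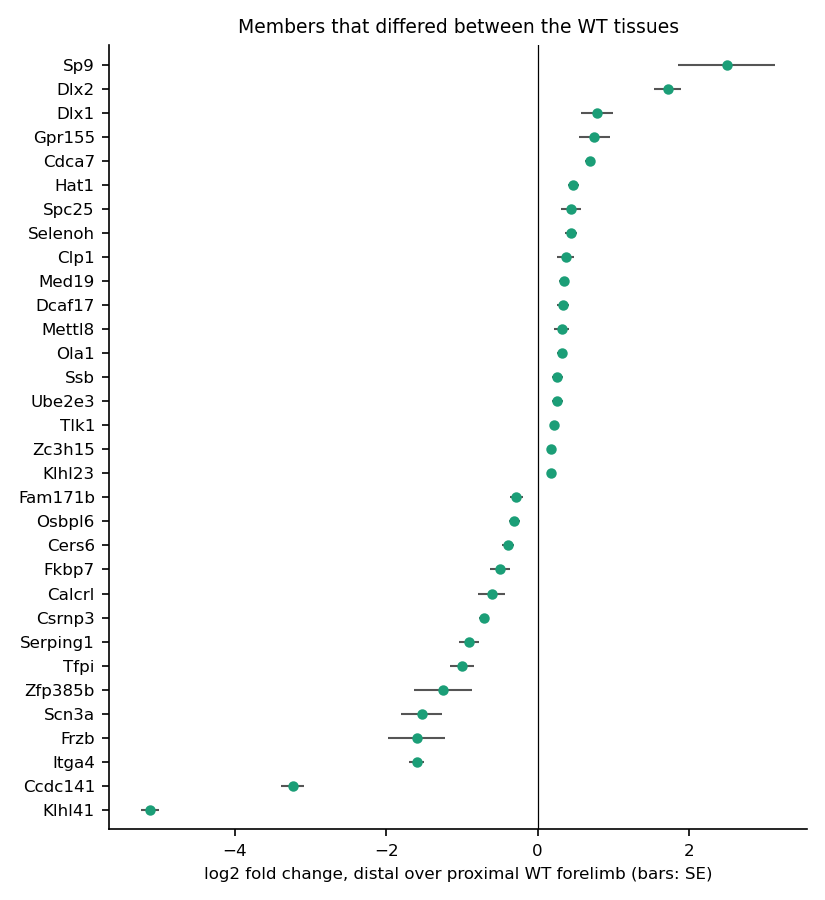
Members called between the WT tissues, in order of their log2 fold change, distal over proximal (x axis). Bars are SE derived from the edgeR F statistic, with 3 libraries per tissue. Sp9 stands at 2.50 and Klhl41 at -5.12, and most of the genes higher in distal WT differ by less than 1 on the log2 scale. Zfp804a, with 3 or fewer counts in every distal WT library, is not drawn.

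Against WT, few members were called in any allele and their median change was small, while estimates of single members reached -1.34 for Frzb in distal Del(CBS1-4) and -2.34 for Sp9 in proximal Del(CBS1-3), where it had 6 or fewer counts per library. In distal forelimb the calls at adjusted p under 0.05 (edgeR, all 18 distal libraries in 1 fit) were 0 of 78 members tested in Del(CBS1), against 0.0302% of other autosomal genes, 5 (6.41%) in Del(CBS1-2), against 11.8%, 0 in Del(CBS1-3), against 0.0%, 0 in Del(CBS1-4), against 0.068%, and 0 in Del(CBS1-5), against 0.068%. Zfp804a, with few distal counts, was not tested there. In proximal forelimb no allele had a called member among 79, where the other autosomal share was 0.0375% in Del(CBS1), 0.751% in Del(CBS1-2), 0.0601% in Del(CBS1-3), 0.0% in Del(CBS1-4) and 0.0601% in Del(CBS1-5). At an unadjusted p under 0.05 there were 6, 23, 4, 16 and 12 members over the 5 distal comparisons and 6, 14, 9, 10 and 7 over the proximal ones. The shares of other autosomal genes at that p were 10.1%, 28.8%, 14.8%, 16.1% and 13.8% in distal and 7.37%, 21.3%, 14.1%, 15.2% and 6.46% in proximal tissue. The comparisons within a tissue share the WT libraries, and their counts are not independent of each other. DESeq2 called 8 distal members in Del(CBS1-2) and 3 in Del(CBS1-4), and 2 proximal members in Del(CBS1-2) and 1 in Del(CBS1-3), with none in the other 6 comparisons. limma on log2(FPKM + 1) called 2 distal members in Del(CBS1-2) and none elsewhere. The other autosomal shares in the DESeq2 and limma fits against WT are not given. In every one of these comparisons the share of members called by edgeR was at or under the share of other autosomal genes. Outside distal Del(CBS1-2) that share was at most 0.751%. There, 0 calls among 78 or 79 members cannot set the members apart from other genes or liken them to those.

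The fits were precise enough to bound most members. The 95% interval of the fold change against WT lay within 1.5-fold in both directions for 59 to 64 of 78 members over the distal comparisons and 61 to 66 of 79 over the proximal ones. It lay within 2-fold for 71 to 76 and 73 to 76 members. The median distance from the estimate to either end of the interval was 0.20 to 0.22 on the log2 scale.

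**Figure D2:**
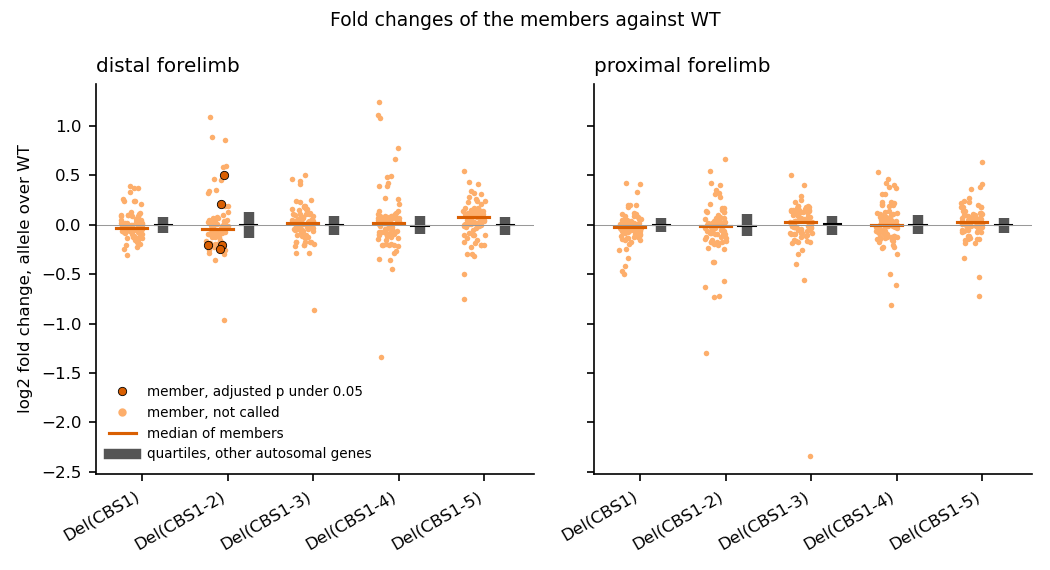
Log2 fold change of each member, allele over WT, in distal (left) and proximal (right) forelimb; points are members, orange lines their medians, grey bars the quartiles of the other autosomal genes and short black lines their medians. The medians of the members lie between -0.04 and 0.08, and the 5 called members are all in distal Del(CBS1-2).

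The size of the changes was that of other genes. The median absolute log2 fold change against WT was 0.07, 0.09, 0.09, 0.09 and 0.11 for members over the 5 distal comparisons, in order of sites removed, against 0.08, 0.13, 0.10, 0.09 and 0.09 for other autosomal genes. In proximal tissue it was 0.06, 0.09, 0.10, 0.11 and 0.07 for members, against 0.07, 0.11, 0.09, 0.10 and 0.07 for other genes. The signed medians of the members were -0.03, -0.04, 0.02, 0.02 and 0.08 in distal and -0.02, -0.01, 0.03, 0.00 and 0.03 in proximal tissue. In distal Del(CBS1-5) 55 of 78 members (70.5%) had a positive value, against 50.2% of other autosomal genes, and in proximal Del(CBS1-5) 51 of 79 (64.6%), against 50.2%. These shares come with 0 members called in either tissue, and no test was made over the set.

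The 5 members called in distal Del(CBS1-2) were all centromeric and all changed by less than 1.5-fold. Cybrd1, a membrane ferric reductase, rose, with 40.2, 43.1 and 35.5 CPM in distal Del(CBS1-2), against 28.0, 28.8 and 25.9 CPM in distal WT, a log2 fold change of 0.50 ± 0.14 (adjusted p = 0.0298). Gorasp2, a Golgi stacking protein, also rose, with 134, 139 and 144.7 CPM in distal Del(CBS1-2), against 121, 121 and 114 CPM in distal WT, a log2 fold change of 0.21 ± 0.06 (adjusted p = 0.0388). For both genes all libraries of the allele were above all WT libraries. Dcaf17, a substrate receptor of a cullin ubiquitin ligase, fell, with 30.5, 31.1 and 29.5 CPM in distal Del(CBS1-2), against 34.3, 37.7 and 34.7 CPM in distal WT (log2 fold change -0.25 ± 0.08, adjusted p = 0.0467). Ubr3, a ubiquitin ligase of the N-recognin family, had 139, 126 and 128 CPM in distal Del(CBS1-2), against 147, 156 and 145.3 CPM in distal WT (-0.21 ± 0.05, adjusted p = 0.0213). Klhl23, a Kelch-like protein, had 74.9, 76.3 and 77.6 CPM in distal Del(CBS1-2), against 89.6, 89.0 and 82.0 CPM in distal WT (-0.21 ± 0.05, adjusted p = 0.013). These 3 genes were below every WT library in all 3 libraries of the allele. In the distal test of any difference among the 6 genotypes, Gorasp2, Dcaf17 and Ubr3 did not pass (adjusted p = 0.0934, 0.114 and 0.0934).

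Each of the 5 calls was lost in at least 1 fit that left out a library. Without 1 library at a time, Gorasp2 and Dcaf17 were called in 0 of 6 fits (adjusted p up to 0.133 without distal Del(CBS1-2) 3 and 0.157 without distal WT 2). Cybrd1 was called in 1 of 6, the fit without distal Del(CBS1-2) 3, with an adjusted p of up to 0.115 without distal Del(CBS1-2) 2. Ubr3 was lost without distal Del(CBS1-2) 2 (adjusted p = 0.107), without distal Del(CBS1-2) 3 and without distal WT 2. Klhl23 was lost without distal Del(CBS1-2) 1 (0.0522) and without distal Del(CBS1-2) 2. Over the set, the count was 3 without distal WT 1 or 3, and 1, 0 and 2 without distal Del(CBS1-2) library 1, 2 and 3. The other autosomal share in those fits is not given, and it can fall as well when a library is left out. With the skeletal muscle marker level as a covariate the count of members was 0, and the other autosomal share then was 0.446%. The log2 fold changes in that fit were 0.37 for Cybrd1, 0.13 for Gorasp2, -0.18 for Dcaf17, -0.23 for Ubr3 and -0.19 for Klhl23 (adjusted p = 0.111 to 0.395). With embryo sex as a covariate the count was 4, against 10.3% of other autosomal genes, and Dcaf17 was lost (-0.22, adjusted p = 0.0748). In proximal tissue the same genes had log2 fold changes against WT of 0.67 ± 0.24 for Cybrd1, 0.13 ± 0.04 for Gorasp2, -0.01 ± 0.08 for Dcaf17, -0.04 ± 0.05 for Ubr3 and -0.24 ± 0.06 for Klhl23, none called (adjusted p = 0.0751 to 0.957). Dcaf17 overlaps Mettl8 and Gorasp2 overlaps Tlk1 on the other strand, and the sources do not say whether the authors' counting used strand.

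A test of any difference among the 6 genotypes, which sets no group apart, gave more calls and the same picture. In distal tissue 14 of 78 members (17.9%) were called, against 21.8% of the other autosomal genes and 24.1% of the rest of chromosome 2. In proximal tissue 13 of 79 (16.5%) were called, against 16.9% and 19.1%. Both sides of the cluster took part, with 8 of 44 centromeric and 6 of 34 telomeric members in distal and 7 of 44 and 6 of 35 in proximal tissue. The 3 genes left out by name would not have changed this, since Grb14 (adjusted p = 0.0745 distal, 0.398 proximal), Itga6 (0.253 and 0.399) and Ttn (0.0581 and 0.0646) were not called, and with them the shares would be 17.3% and 15.9%. DESeq2 called 17 and 19 members in distal and proximal tissue, and 28.7% and 26.1% of the other autosomal genes.

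These counts depended on single libraries. In distal tissue 9 members were called without Del(CBS1) 2, Del(CBS1-2) 1 or Del(CBS1-4) 3, 8 without Del(CBS1-2) 2, Del(CBS1-2) 3 or Del(CBS1-4) 1, 7 without Del(CBS1-5) 2 and 6 without Del(CBS1-5) 1. In proximal tissue 7 were called without any 1 of the Del(CBS1-2) libraries or without Del(CBS1-3) 1, Del(CBS1-4) 1 or Del(CBS1-5) 1, and 6 without Del(CBS1-5) 2. The other autosomal share fell in the same fits, to between 12% and 17.7% in distal and 8.38% to 11.6% in proximal tissue. With the muscle marker level as a covariate, 0 of 78 distal members were called, against 2.91% of other autosomal genes, and 9 of 79 proximal members (11.4%), against 11.4%. With embryo sex as a covariate, 10 distal members (12.8%) were called, against 16.1%, and 7 proximal ones (8.86%), against 10.6%. In that fit Slc43a1 was lost in both tissues (adjusted p = 0.0649 and 0.0784), and Tmx2 (0.0627) and Itgav (0.0595) in proximal tissue.

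**Figure D3:**
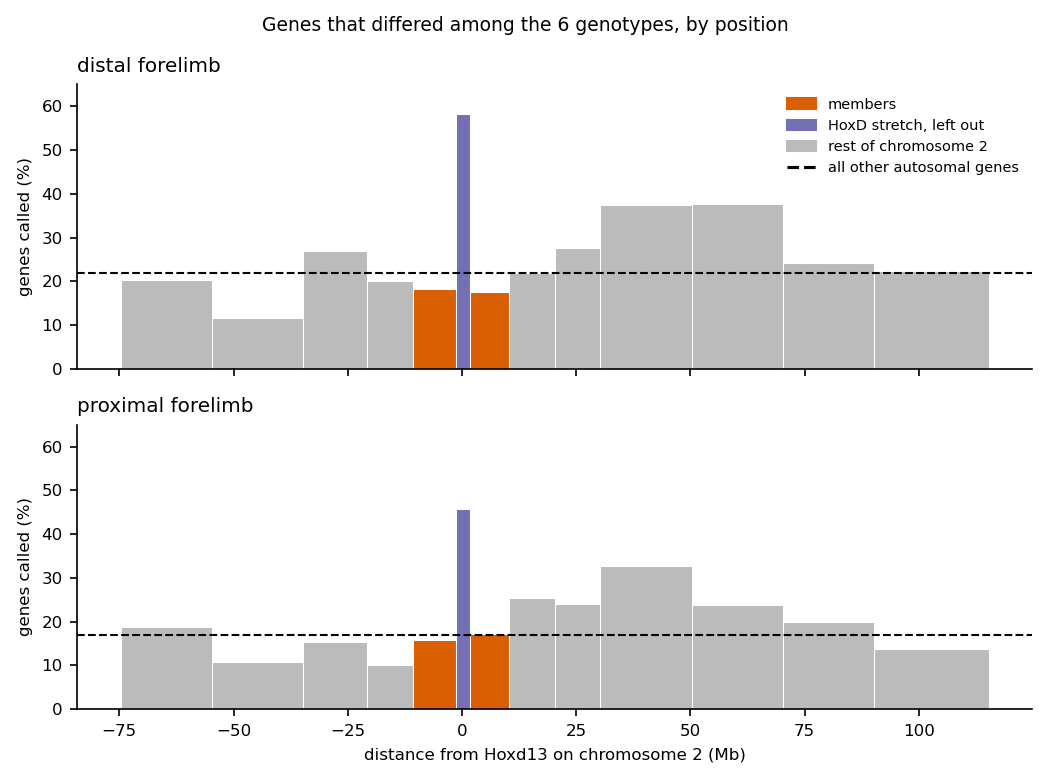
Share of genes called as different among the 6 genotypes (y axis, percent) by distance from Hoxd13 along chromosome 2 (x axis, Mb), in distal (top) and proximal (bottom) forelimb; the dashed line is the share over all other autosomal genes. Both stretches of members (orange) stand near the line, the HoxD stretch left out of the set stands at 58.3% and 45.8%, and the stretch from 30.3 to 50.3 Mb stands at 37.4% and 32.8%.

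Along chromosome 2 the members stood on both sides of a peak. On the centromeric side, from 10.7 to 1.3 Mb before Hoxd13, 18.2% of 44 members were called in distal and 15.9% in proximal tissue. On the telomeric side, from 1.7 to 10.3 Mb after it, 17.6% of 34 were called in distal and 17.1% of 35 in proximal tissue. In the stretch between them, which holds the Hoxd genes and was left out, 14 of 24 genes (58.3%) were called in distal and 11 of 24 (45.8%) in proximal tissue. Higher shares than those of the members lay farther telomeric, at 27.6% and 24.1% of 29 genes from 20.3 to 30.3 Mb after Hoxd13, 37.4% of 115 distal and 32.8% of 116 proximal genes from 30.3 to 50.3 Mb, and 37.7% and 23.8% of 130 genes from 50.3 to 70.3 Mb. From 54.7 to 34.7 Mb before Hoxd13 the shares were 11.7% and 10.8%. Single autosomes ranged from 16.2% to 25.2% in distal and from 11.5% to 19.6% in proximal tissue, and 18 of 19 autosomes in distal and 10 of 19 in proximal tissue were above the members. Neighbouring genes can share differences, so these shares are a description and carry no test.

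Of the members, 7 were called in both tissues: Selenoh, Hat1, Tmx2, Slc43a1, Frzb, Klhl41 and Scn1a. They are 50.0% of the 14 distal and 53.8% of the 13 proximal calls, against 37.9% and 48.6% for other autosomal genes, and 8.86% of all members, against 8.2% of the other genes. Same-numbered distal and proximal libraries come from the same embryos, so a call in the second tissue is not an independent repeat.

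Selenoh, Hat1 and Tmx2 were all lower in Del(CBS1-4) than in Del(CBS1-5). Selenoh had 117, 121 and 111 CPM in distal Del(CBS1-4), 151, 152 and 152 CPM in distal Del(CBS1-5), and 137, 119 and 145.3 CPM in distal WT. The first group lay mostly under the WT range and the second wholly above it. The difference among genotypes had an adjusted p of 0.00731 in distal and 0.0162 in proximal tissue, and both calls held without any single library. Hat1 had 91.0, 92.8 and 88.8 CPM in distal Del(CBS1-2), 98.9, 89.8 and 91.3 CPM in distal Del(CBS1-4), 118, 114 and 107 CPM in distal Del(CBS1-5), and 98.1, 101 and 108 CPM in distal WT. In proximal tissue it had 68.9, 65.8 and 62.9 CPM in Del(CBS1-2), 64.02, 69.5 and 70.1 CPM in Del(CBS1-4), 84.5, 83.3 and 74.98 CPM in Del(CBS1-5), and 76.1, 69.8 and 75.5 CPM in WT. Del(CBS1-2) was below every WT library in both tissues, while Del(CBS1-4) and Del(CBS1-5) overlapped WT in part, and adjusted p was 0.0161 in distal and 0.0173 in proximal tissue. The distal call was lost without Del(CBS1-5) 1 (adjusted p = 0.0553) and without Del(CBS1-5) 2. Tmx2, a thioredoxin-like protein of the endoplasmic reticulum that lies beside Selenoh, had 19.8, 21.1 and 16.1 CPM in distal Del(CBS1-4), 26.3, 30.2 and 25.3 CPM in distal Del(CBS1-5), and 23.9, 18.1 and 23.3 CPM in distal WT. Its adjusted p was 0.0094 in distal and 0.0424 in proximal tissue, the second lost in 11 of 18 fits without a library, with an adjusted p of up to 0.106 without Del(CBS1-5) 1. Tmx2 and Selenoh overlap a shared read-through model, so reads may be split between them.

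Against WT, none of these 3 was called in any allele. Selenoh stood at -0.21 ± 0.06 in distal Del(CBS1-4) (adjusted p = 0.121) and 0.17 ± 0.06 in distal Del(CBS1-5) (0.27). Hat1 stood at -0.19 ± 0.06 in distal Del(CBS1-2) (0.063) and 0.13 ± 0.06 in distal Del(CBS1-5) (0.406). Tmx2 stood at -0.30 ± 0.11 in distal Del(CBS1-2) (0.0945) and 0.31 ± 0.11 in distal Del(CBS1-5) (0.259). Del(CBS1-5) against Del(CBS1-4) passed for all 3, at 0.38 for Selenoh (adjusted p = 0.00219 in distal tissue), 0.27 for Hat1 (0.0103) and 0.52 for Tmx2 (0.00744). In proximal tissue the same contrast was 0.39 for Selenoh (0.00915), 0.26 for Hat1 (0.0238) and 0.41 for Tmx2 (0.0323). The distal calls of Selenoh and Tmx2 held without any single library, and that of Hat1 was lost without Del(CBS1-5) 1 (0.0604). In proximal tissue Selenoh was lost without Del(CBS1-5) 1 (0.0617), Hat1 in 4 of 6 such fits (Del(CBS1-4) 1 or 3, Del(CBS1-5) 1 or 2; up to 0.115), and Tmx2 in 5 of 6, all but the one without Del(CBS1-5) 3 (up to 0.131). Del(CBS1-4) against Del(CBS1-3) also passed for Selenoh, at -0.31 in distal (0.0102) and in proximal tissue (0.0181), and for Hat1 in proximal tissue, at -0.26 (0.0199). The distal call of Selenoh was lost without Del(CBS1-3) 1 (0.0511), and the proximal calls were lost in 4 of 6 fits for Selenoh and 3 of 6 for Hat1, in both without Del(CBS1-3) 1, Del(CBS1-3) 3 or Del(CBS1-4) 1. Hat1 was called in proximal Del(CBS1-3) against Del(CBS1-2) as well, at 0.30 (0.0185), a call lost in 4 of 6 fits (Del(CBS1-2) 2 or 3, Del(CBS1-3) 1 or 3). Slc43a1, a transporter of large neutral amino acids, was called at the edge of the threshold, with 0.0471 in distal and 0.0499 in proximal tissue, and each call was lost in 13 of 18 fits without a library, with an adjusted p of up to 0.126 without distal Del(CBS1-2) 1 and 0.171 without proximal Del(CBS1-5) 1.

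Frzb varied widely among genotypes in both tissues. In distal tissue it had 13.8, 12.55 and 14.6 CPM in Del(CBS1-2), 10.7, 11.2 and 9.34 CPM in Del(CBS1-4), and 33.6, 12.4 and 32.4 CPM in WT. The other alleles lay higher and spread widely, with 15.4, 38.4 and 22.8 CPM in Del(CBS1), 33.6, 18.4 and 38.1 CPM in Del(CBS1-3) and 36.5, 30.8 and 19.3 CPM in Del(CBS1-5). In proximal tissue it had 46.1, 48.0 and 49.3 CPM in Del(CBS1-2), 34.1, 49.8 and 51.5 CPM in Del(CBS1-4), 114, 102 and 87.6 CPM in Del(CBS1-5), and 96.3, 46.2 and 95.3 CPM in WT. Only distal Del(CBS1-4) lay wholly under WT, because WT embryo 2 was low in both tissues and stood among the Del(CBS1-2) and Del(CBS1-4) libraries. The difference among genotypes had an adjusted p of 0.0205 in distal tissue, lost without Del(CBS1-4) 1 or Del(CBS1-4) 3 (adjusted p up to 0.0553), and of 0.00554 in proximal tissue, kept whichever single library was left out. Against WT the log2 fold changes were -0.96 ± 0.35 in distal Del(CBS1-2) (adjusted p = 0.0865), -1.34 ± 0.36 in distal Del(CBS1-4) (0.0989), -0.73 ± 0.21 in proximal Del(CBS1-2) (0.0819) and -0.81 ± 0.21 in proximal Del(CBS1-4) (0.168). Without WT embryo 2 all 4 were called, at -1.29 (0.0247), -1.67 (0.017), -1.01 (0.00255) and -1.09 (0.00328). Without distal WT 2, Scn1a, Galnt3, Tmx2 and Klhl23 were also called in distal Del(CBS1-2), and Scn1a, Galnt3, Selenoh and Map3k20 in distal Del(CBS1-4), while the other autosomal shares were 7.04% and 3.69%. Without proximal WT 2, Map3k20 was called beside Frzb in proximal Del(CBS1-4). Map3k20 was named after its values were seen.

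**Figure D4:**
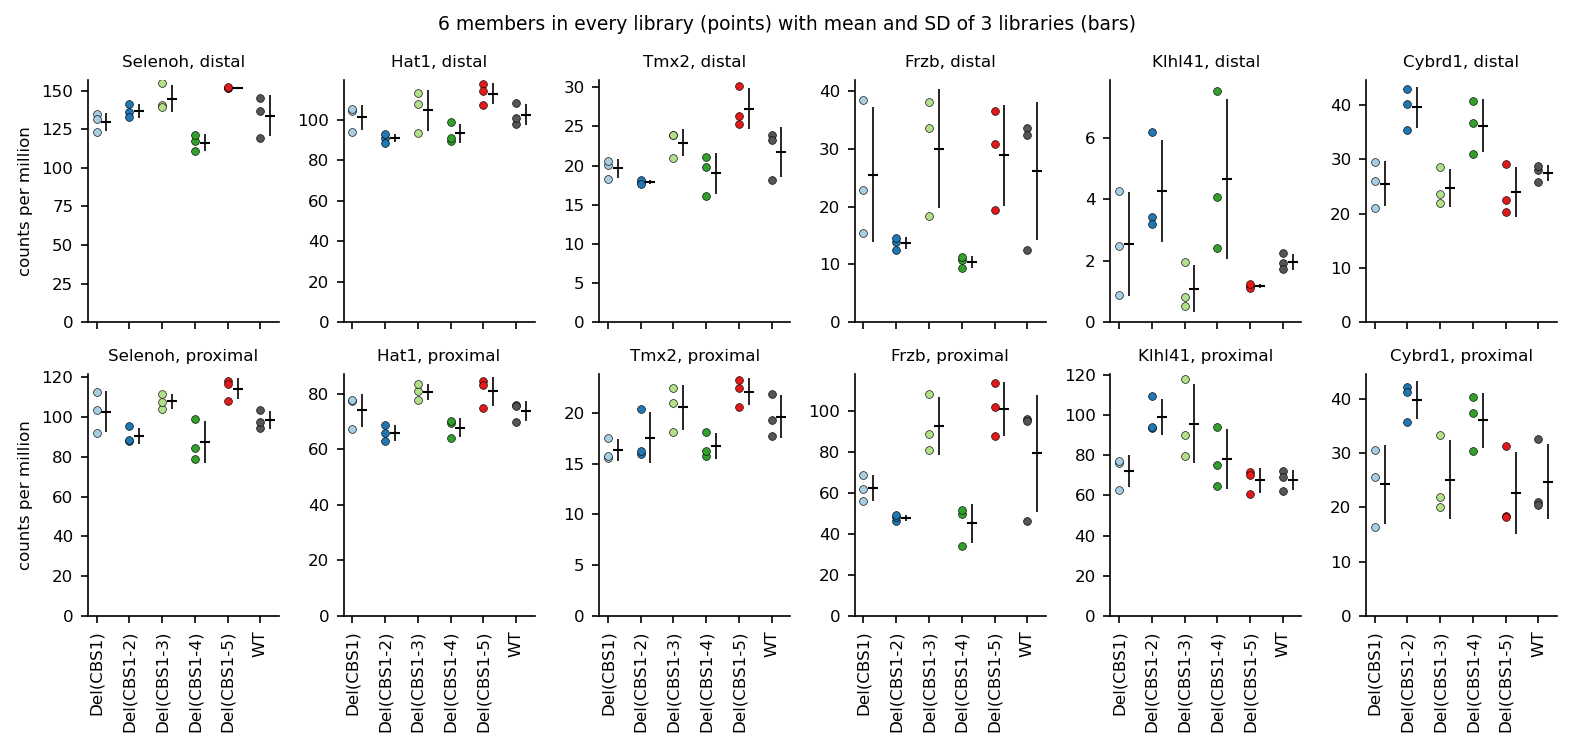
CPM (y axis, from 0) of 6 members in every library of distal (top) and proximal (bottom) forelimb, by genotype; points are libraries, bars the mean and SD of 3. Frzb is low in Del(CBS1-2), in Del(CBS1-4) and in 1 of 3 WT libraries in both tissues; Cybrd1 and distal Klhl41 are high in Del(CBS1-2) and Del(CBS1-4).

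Klhl41 and Scn1a were high in distal Del(CBS1-2) and Del(CBS1-4), where Frzb was low. Klhl41 had 6.19, 3.42 and 3.19 CPM in distal Del(CBS1-2), 0.816, 1.95 and 0.516 CPM in distal Del(CBS1-3), 4.07, 2.40 and 7.53 CPM in distal Del(CBS1-4), 1.161, 1.10 and 1.24 CPM in distal Del(CBS1-5), and 1.91, 2.24 and 1.73 CPM in distal WT. Libraries of Del(CBS1-2) and Del(CBS1-4) were all above WT and those of Del(CBS1-5) all below it, and adjusted p among genotypes was 0.0193 in distal and 0.019 in proximal tissue, the second lost without Del(CBS1-2) 1 (0.053). Against WT it was not called, at 1.09 ± 0.48 in distal Del(CBS1-2) (adjusted p = 0.151) and 1.24 ± 0.48 in distal Del(CBS1-4) (0.219). The proximal order was another, with 109, 93.5 and 94.3 CPM in Del(CBS1-2), 90.2, 118 and 79.6 CPM in Del(CBS1-3), 64.9, 75.3 and 94.3 CPM in Del(CBS1-4), and 62.2, 72.1 and 69.2 CPM in WT. There Del(CBS1-3) lay above WT at 0.50 ± 0.14 (0.148), while in distal tissue it stood at -0.86 ± 0.56 (0.507). Scn1a had 7.95, 6.33 and 6.13 CPM in distal Del(CBS1-2), 8.64, 6.499 and 8.50 CPM in distal Del(CBS1-4), 1.78, 2.69 and 3.44 CPM in distal Del(CBS1-5), and 3.21, 5.52 and 2.41 CPM in distal WT. The first pair of alleles lay above WT without overlap but was not called against it, at 0.86 ± 0.30 (adjusted p = 0.0707) and 1.08 ± 0.29 (0.0989). Among genotypes the adjusted p was 0.00742 in distal and 0.0272 in proximal tissue, the second lost without Del(CBS1-3) 1 (0.0741) or Del(CBS1-5) 2. Cybrd1 followed the same order, with 36.8, 31.1 and 40.8 CPM in distal Del(CBS1-4), 20.2, 22.6 and 29.1 CPM in distal Del(CBS1-5), and 28.0, 28.8 and 25.9 CPM in distal WT, and an adjusted p among genotypes of 0.00563 in distal and 0.0599 in proximal tissue. Galnt3, which glycosylates the phosphate hormone FGF23, had 6.71, 6.78 and 7.88 CPM in distal Del(CBS1-4), against 2.67, 5.66 and 4.08 CPM in distal WT, and was not called (0.78 ± 0.21, adjusted p = 0.1).

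Markers of other cell types also differed among genotypes. In distal tissue 4 of 13 skeletal muscle, 3 of 5 cartilage, 5 of 5 erythroid, 0 of 5 endothelium, 0 of 3 neural crest and nerve, 1 of 4 macrophage, 2 of 5 epidermis, 4 of 7 distal limb and 1 of 6 proximal limb markers were called, against 21.8% of other autosomal genes. In proximal tissue the counts in the same order of lists were 6, 5, 4, 2, 0, 1, 2, 0 and 2, against 16.9%. Against WT, distal Del(CBS1-2) had 2 muscle markers and 1 cartilage marker called higher and 2 erythroid markers lower, while distal Del(CBS1-4) and Del(CBS1-5) had 0 called in these 3 lists. Distal Del(CBS1-2) also had 2 of 5 epidermis, 1 of 3 neural crest and nerve, 1 of 4 macrophage and 1 of 6 proximal limb markers called higher. Of 7 distal limb markers, 1 was called higher and 1 lower, and 0 of 5 endothelium markers were called. The other autosomal share in that comparison was 11.8%. The median log2 fold changes of the muscle, cartilage and erythroid lists were 1.27, 0.59 and -0.66 in distal Del(CBS1-2), 0.98, 0.55 and -0.46 in distal Del(CBS1-4), and -0.50, -0.25 and 0.40 in distal Del(CBS1-5). The summed skeletal muscle level was 24.9 to 92.1 CPM in distal Del(CBS1), 73.8 to 141 in Del(CBS1-2), 17.9 to 68.2 in Del(CBS1-3), 40.1 to 117 in Del(CBS1-4), 21.2 to 32.8 in Del(CBS1-5) and 34.6 to 37.7 in WT. The summed cartilage level in the same order of distal groups was 1700 to 1861, 2378 to 2456, 1605 to 2343, 2091 to 2465, 1501 to 1892 and 1710 to 1925 CPM. The summed erythroid level was 1609 to 2242, 1800 to 1841, 1858 to 2475, 1668 to 2031, 2361 to 3924 and 2169 to 2637 CPM. In proximal tissue the muscle sum was 1658 to 2022, 2517 to 2734, 1906 to 3012, 1787 to 2399, 1719 to 2152 and 1822 to 2164 CPM, the cartilage sum 3002 to 3783, 4018 to 4087, 2809 to 3493, 3402 to 4703, 2633 to 3383 and 3061 to 3278 CPM, and the erythroid sum 1161 to 1777, 1484 to 1576, 1840 to 2150, 1364 to 1844, 2290 to 2353 and 1624 to 1724 CPM. No marker of these 3 lists was at 0 in a whole group. Their part in the values of Frzb, Klhl41, Scn1a, Selenoh, Hat1 and Tmx2 was not tested. In the fit with the muscle level as a covariate 0 distal members and 6 of the 8 named proximal ones were called among genotypes, with Klhl41 (adjusted p = 0.322) and Slc43a1 (0.0795) lost. The alleles and the muscle level go together in distal tissue, so the 2 cannot be told apart there.

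**Figure D5:**
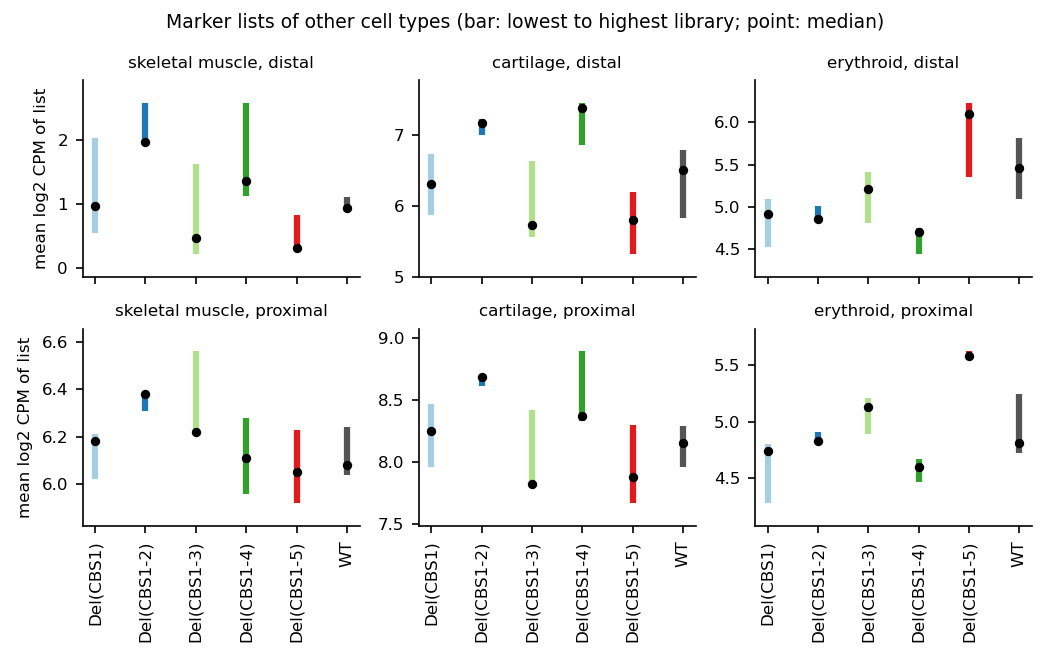
Mean log2 CPM of the skeletal muscle, cartilage and erythroid marker lists by genotype in distal (top) and proximal (bottom) forelimb; bars run from the lowest to the highest of 3 libraries and points are medians. In distal tissue the medians of the muscle and cartilage lists are highest in Del(CBS1-2) and Del(CBS1-4), and the median of the erythroid list is highest in Del(CBS1-5), where it overlaps WT.

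No other member with a role in limb or mesenchyme was called against WT. Sp9 had 12.45, 11.7 and 12.8 CPM in distal Del(CBS1-2), 13.1, 11.8 and 12.54 CPM in distal Del(CBS1-4), and 10.3, 6.99 and 9.47 CPM in distal WT. Every library of those alleles was above WT, but the log2 fold changes of 0.45 ± 0.19 and 0.48 ± 0.20 were not called (adjusted p = 0.147 and 0.248). Its proximal level was 0.0 to 3.57 CPM over the 18 libraries. Dlx2, with 16.1, 17.4 and 20.6 CPM in distal Del(CBS1), against 12.6, 14.5 and 14.7 CPM in distal WT, stood at 0.37 ± 0.15 (adjusted p = 0.42), and Dlx1 in the same comparison at 0.26 ± 0.14 (0.554). Itgav, the integrin αv subunit, was called among genotypes in proximal tissue (adjusted p = 0.0374), with 79.3, 80.2 and 85.02 CPM in Del(CBS1-5), 104.7, 114 and 113 CPM in Del(CBS1-4), and 83.7, 124 and 101 CPM in WT. That call was lost in 11 of 18 fits without a library, with an adjusted p of up to 0.0913. Pdk1, a kinase that restrains pyruvate dehydrogenase, was called in distal tissue (0.03), with 71.7, 68.2 and 75.9 CPM in Del(CBS1-5), against 102, 92.6 and 73.2 CPM in WT. It was lost in 5 of 18 fits without a library (Del(CBS1-2) 3, Del(CBS1-4) 1 or 2, Del(CBS1-5) 1 or 2), with an adjusted p of up to 0.107. Itga4, Dlx1, Dlx2, Sp3, Sp9, Calcrl, Tfpi, Cdca7, Nckap1, Ctnnd1, Galnt3 and Cobll1 were not called among genotypes in either tissue. Ctnnd1, the p120 catenin of cell junctions, and Nckap1, a subunit of the WAVE actin complex, stayed near WT, with log2 values of 0.02 to 0.07 and -0.07 to 0.09 in distal tissue and standard errors of 0.04 and 0.05. Sp5 and Lrp2, which lie in the same window, were under the level threshold.

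Steps between successive alleles drew more calls than comparisons with WT. In distal tissue Del(CBS1-2) against Del(CBS1) had 1 of 78 members called, against 2.74% of the other autosomal genes, Del(CBS1-3) against Del(CBS1-2) had 3, against 7.22%, Del(CBS1-4) against Del(CBS1-3) had 6, against 11.8%, and Del(CBS1-5) against Del(CBS1-4) had 17 (21.8%), against 18.2%. In that last distal step 44.9% of members had an unadjusted edgeR p under 0.05, against 34.6% of other autosomal genes. The median absolute log2 change was 0.19, against 0.14, and 1 of 19 autosomes had a higher share called than the members. In the distal steps before it the members' shares at the unadjusted p were 19.2%, 21.8% and 25.6%, against 21.0%, 24.6% and 30.2%. In proximal tissue the counts of called members were 0 of 79, against 1.61%, 6 (7.59%), against 8.11%, 13 (16.5%), against 15.5%, and 11 (13.9%), against 11.5%. The 0 comes with 15 members at an unadjusted p under 0.05, against 21.8% of other autosomal genes, and with 1 member called by DESeq2 and 0 by limma. With embryo sex as a covariate, 0 members were called in the first and second steps of either tissue, against 0.763% and 1.54% of other autosomal genes in distal and 0.668% and 0.961% in proximal tissue. At an unadjusted edgeR p under 0.05 there were 12 and 11 distal and 10 and 15 proximal members in these steps. In the last 2 steps of that fit 5 and 16 distal and 7 and 11 proximal members were called. Shares of other autosomal genes are not given for these counts or for those at the unadjusted p. The counts therefore describe the members only. Without that covariate, Cybrd1 was called in all 4 distal steps, at 0.62, -0.67, 0.55 and -0.60 on the log2 scale (adjusted p = 0.033, 0.0135, 0.0239 and 0.0109). Each of these calls was lost without some library, up to 0.126 without Del(CBS1) 2 in the first. Frzb was called in the last 2 distal steps, at -1.53 (adjusted p = 0.017) and 1.47 (0.0129), and in the last 3 proximal ones, at 0.96 (0.0164), -1.04 (0.00522) and 1.17 (0.00606). The last 2 proximal steps of Frzb held without any single library, and the first of the 3 was lost without Del(CBS1-2) 1, Del(CBS1-2) 2 or Del(CBS1-3) 1 (up to 0.0785). The distal steps were lost in 4 of 6 fits without a library (Del(CBS1-3) 1 or 3, Del(CBS1-4) 1 or 3; up to 0.0738) and in 3 of 6 (Del(CBS1-4) 3, Del(CBS1-5) 1 or 2; up to 0.0677). Klhl41 was called in the last 3 distal steps, at -1.96, 2.10 and -1.99, and in no proximal step. These calls were lost in 5 of 6 fits (all but the one without Del(CBS1-3) 2; up to 0.162), in 3 of 6 (Del(CBS1-3) 1 or 3, Del(CBS1-4) 3; up to 0.0992) and in 3 of 6 (Del(CBS1-4) 3, Del(CBS1-5) 1 or 2; up to 0.0922). In at least 1 step, 19 of 78 distal members (24.4%) and 20 of 79 proximal members (25.3%) were called, against 26.0% and 24.8% of the other autosomal genes. The distal count was 10 without Del(CBS1-4) 3, Del(CBS1-5) 1 or Del(CBS1-5) 2, and the proximal count was 12 without Del(CBS1-3) 1, Del(CBS1-4) 1, Del(CBS1-4) 3 or Del(CBS1-5) 2. Shares of other autosomal genes in those fits are not given and can fall as well.

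Of 67 members placed in 9 role groups, the 5 distal Del(CBS1-2) calls fell on 4 of 12 membrane traffic and protein turnover genes (Gorasp2, Dcaf17, Ubr3 and Klhl23) and 1 of 9 mitochondria and metabolism genes (Cybrd1). Among the 6 genotypes, the calls in distal tissue were 1 of 10 transcription and chromatin genes, 1 of 10 adhesion, matrix and signalling genes, 1 of 10 RNA processing and translation genes, 0 of 7 cell division and cytoskeleton genes, 3 of 9 mitochondria and metabolism genes, 4 of 12 membrane traffic genes, 0 of 2 cilia genes, 1 of 4 sodium channel genes and 1 of 2 muscle genes. In proximal tissue they were 1 of 11, 2 of 10, 0 of 10, 2 of 7, 3 of 9, 1 of 12, 0 of 2, 1 of 4 and 1 of 2 in the same order. The share of other autosomal genes called was 21.8% in distal and 16.9% in proximal tissue, and no test was made by group. The groups are loose lists for description, so a count under a heading does not fix what each gene does.

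No member passed a test of whether its response to an allele differed between the tissues. In a fit of all 36 libraries with an interaction of tissue and allele, edgeR called 0 of 79 members for each of the 5 alleles, with 2, 8, 3, 7 and 3 at an unadjusted p under 0.05 from Del(CBS1) to Del(CBS1-5). The other autosomal share called by the adjusted p was 0.0%, 0.0525%, 0.0%, 0.00751% and 0.0%. No such share is given at the unadjusted p, so the unadjusted counts have no background beside them. The lowest adjusted p among members was 0.336, for Timm10, a chaperone of the mitochondrial intermembrane space, in Del(CBS1-2), named after its value was seen. DESeq2 and limma were not run for the interaction. The fit had no embryo term, although same-numbered distal and proximal libraries come from the same embryo, which can cost power. The absence of calls therefore does not show that responses were equal in the tissues.

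Embryo-to-embryo variation within a genotype was of ordinary size in the members. The median SD of log2 CPM around the genotype mean was 0.125 in distal and 0.122 in proximal tissue, against 0.113 and 0.115 for other autosomal genes. Over the 18 embryos, the deviation in distal tissue and that in proximal tissue had a median correlation of 0.25 over the 79 members (quartiles -0.05 and 0.46), against 0.19 (-0.06 and 0.43) over other autosomal genes and 0.16 to 0.25 over single autosomes. These correlations share the embryo and its dissection and are given as a description.

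Total counts per library were 11062069 to 17727891. Replicates of a group differed well beyond counting noise, with a chi-square per degree of freedom of 2.77 to 22.7 between pairs of libraries. No library was therefore a repeat deposit of another in its group. Libraries of different groups were not compared in this way. Among the members 43 overlap another gene model and 34 overlap one on the other strand, and the values of those genes carry that uncertainty.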

How the data were processed

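The authors deposited raw read counts and FPKM values per gene for 36 libraries, on mm10. Tools listed among the submitters' processing notes are Cufflinks 2.2.1, STAR 2.7.0 and cutadapt 1.16, with their roles not stated. Libraries were stranded poly(A) RNA read as 50-nt single ends, per the labels' protocols. Whether counting used strand is not given in the sources used here. Members and gene lists were chosen with earlier results of these data known.

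Counts were tested with edgeR 4.0.16 (R 4.3.3; TMM scaling, its default filter on low counts, quasi-likelihood F test), with 1 fit per tissue over its 18 libraries and 1 fit of the 6 WT libraries, and Benjamini-Hochberg adjustment over all genes tested at 0.05. CPM used TMM-scaled library sizes. FPKM values were tested with limma 3.58.1 on log2(FPKM + 1), with 1 as the pseudocount. DESeq2 1.42.0, RLE size factors, no filter, a muscle marker covariate, a replicate block and leaving out each library were alternatives, and embryo sex as a covariate was added after seeing the data. The script was tested on simulated data. Tables and figures were made with Python 3.11.15, pandas 2.3.3, numpy 2.4.6 and matplotlib 3.10.9.

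Named genes were the members called among genotypes in both tissues, those called against WT in an allele with no overlap between groups and 50 or more mean counts where higher (up to 3 per direction), and a list of limb and mesenchyme genes in the window. Distal and proximal libraries of the same number deviated together (r = 0.22 to 0.67 in 18 of 18 pairs) and 18 of 18 had the same pattern of sex-linked genes, so the number marks an embryo across tissues. Across genotypes r was over 0.1 in 7 of 30 same-numbered pairs. Of these, 5 were Del(CBS1-3) with WT (0.18, 0.10 and 0.34 in distal, 0.24, 0.11 and 0.41 in proximal tissue), where the embryos differ in sex in all 3 pairs, and the blocked count of called members was 0, as without the block. The rest were library 2 of Del(CBS1-2) with library 2 of WT, at 0.12 in distal and 0.15 in proximal tissue. No other same-numbered pair of an allele with WT was over 0.1. The labels give separate embryos as replicates.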

Additional observations from a re-analysis of the deposited data

How the results depend on the processing

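Of the values of single named members under the alternatives, 4456 kept their direction and side of the threshold, 131 lost a call, 74 gained one and none reversed. Most of these values were not called in the main fit and had no call to lose. The 4456 therefore does not measure how stable the calls were. With the muscle covariate, for example, 295 values were unchanged while 17 lost a call. Called members against WT were 8 in distal Del(CBS1-2) with DESeq2, 8 without a filter, 2 with limma on log2(FPKM + 1) and 0 with the muscle covariate. In distal Del(CBS1-4) they were 3 with DESeq2 and 9 without a filter, and in distal Del(CBS1-5) 2 without a filter. In proximal tissue DESeq2 gave 2 in Del(CBS1-2) and 1 in Del(CBS1-3), and no filter gave 1, 7, 3, 4 and 3 from Del(CBS1) to Del(CBS1-5). Among genotypes limma called 6 distal and 7 proximal members, the muscle covariate 0 distal, and no filter 25 proximal (31.6%, against 28.9% of other autosomal genes). In at least 1 step, limma called 11 distal members, the muscle covariate 0 distal, and no filter 31 proximal. Embryo sex as a covariate, chosen after seeing the data, gave 7 proximal members among genotypes. It gave 0 members in distal and in proximal Del(CBS1-3) against Del(CBS1-2). The cause of these shifts was not tested. Most counts in this paragraph come without the share of other autosomal genes in the same fit, which can shift as well. They are no comparison of members with other genes. Leaving out 1 library gave 0 to 5 in distal Del(CBS1-2) and in distal Del(CBS1-4) (5 without WT 2), 0 to 1 in distal Del(CBS1-5) (1 without WT 3), 0 to 1 in proximal Del(CBS1-2) and 0 to 2 in proximal Del(CBS1-4) (both without WT 2). It gave 6 to 19 distal and 6 to 18 proximal members among genotypes, 10 to 22 distal and 12 to 25 proximal in steps, and 21 to 33 between WT tissues. With the replicate number as a block, which pairs embryos only between tissues, the counts were 4 in distal Del(CBS1-2), 0 in the other allele comparisons, 10 distal and 9 proximal among genotypes, 16 and 17 in steps, and 41 between WT tissues. With 3 libraries per group, the 95% interval of a member's fold change reached a median of 0.20 to 0.22 (log2) to either side.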
